A study of Mus musculus with 12 samples.

Results

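Accessible chromatin was examined around 9 genes of the AP-1 transcription factor family, Fos, Fosb, Fosl1, Fosl2, Jun, Junb, Jund, Atf3 and Batf3, in lists of ATAC-seq peaks from sorted mouse medulloblastoma cells. A peak belonged to a gene when its midpoint lay inside the mm10 span of that gene, or within 100 kb of it, and no other protein-coding gene was nearer. These are 9 of 21627 protein-coding genes, and they held 191 of the 218906 peaks in the 12 lists. Joining peaks that shared 1 bp or more gave 44242 regions, of which 33 belonged to the AP-1 genes.

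All 12 libraries were made from endpoint SHH medulloblastomas of untreated Ptch1+/- mice, so every group carried the Ptch1 mutation and no group was normal tissue. SHH medulloblastoma is a tumour of the cerebellum driven by hedgehog signalling, which the PTCH1 receptor restrains. An eGFP signal for SOX2 separated the stem-like cells (SOX2+, 4 libraries) from the bulk of the tumour (SOX2-, 4 libraries). In another sort, an RFP signal for MKI67 divided SOX2+ cells into cycling (SOX2+/MKI67+, 2 libraries) and non-cycling (SOX2+/MKI67-, 2 libraries) cells. The question was how accessibility differed between these compartments. Whether replicates were different animals is not in the labels, and p-values therefore reflect only the spread between these libraries, which may be technical. In pooled cells, a region open in fewer cells and a region less open in each cell cannot be told apart.

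AP-1 is a family of dimers of basic leucine zipper proteins. FOS proteins bind DNA chiefly as partners of JUN proteins, JUN proteins also pair with each other, and ATF3 and BATF3 are partners of JUN proteins. The dimers recognise TGANTCA, the TPA response element, or the longer cyclic AMP response element, TGANNTCA. Fos, Fosb, Jun, Junb and Atf3 are immediate early genes, which are transcribed rapidly and briefly after growth factors, stress or depolarisation, and handling of live tissue can also induce them.

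The bases just before the start sites of Fos, Jun, Junb and Atf3 are given because these start sites ranged from a peak in 12 of 12 lists (Jun) and 11 of 12 (Fos) to 8 of 12 (Junb) and 4 of 12 (Atf3). They were taken from RefSeq (GRCm38.p6, the coordinates of mm10), each 250 bases long, written 5′ to 3′ on the strand of the gene and ending at the base before the start site. Capitals mark matches to 5 motifs searched on both strands: TGANTCA as above, the longer TGANNTCA, the short core TGACGT of the cyclic AMP element, the CArG box that serum response factor binds, and the GC box core GGGCGG. A TGANNTCA match with C and G in its middle also holds TGACGT.
Fos, chr12:85473640-85473889, plus strand: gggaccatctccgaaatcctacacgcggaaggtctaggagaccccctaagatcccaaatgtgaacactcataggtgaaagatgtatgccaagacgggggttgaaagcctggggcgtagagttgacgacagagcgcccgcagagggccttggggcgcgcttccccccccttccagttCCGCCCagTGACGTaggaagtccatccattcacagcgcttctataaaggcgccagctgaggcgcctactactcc
Jun, chr4:95052223-95052472, minus strand: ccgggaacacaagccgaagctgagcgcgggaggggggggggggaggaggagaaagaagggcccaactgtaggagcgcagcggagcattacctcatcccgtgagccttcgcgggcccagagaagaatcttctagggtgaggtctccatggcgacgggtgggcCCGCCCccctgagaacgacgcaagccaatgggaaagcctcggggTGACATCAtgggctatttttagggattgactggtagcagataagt
Junb, chr8:84978749-84978998, minus strand: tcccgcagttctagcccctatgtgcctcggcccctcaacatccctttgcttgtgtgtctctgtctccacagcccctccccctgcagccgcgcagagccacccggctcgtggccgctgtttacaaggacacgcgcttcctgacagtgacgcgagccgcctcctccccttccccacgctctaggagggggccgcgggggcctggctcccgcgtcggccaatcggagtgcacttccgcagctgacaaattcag
Atf3, chr1:191183334-191183583, minus strand: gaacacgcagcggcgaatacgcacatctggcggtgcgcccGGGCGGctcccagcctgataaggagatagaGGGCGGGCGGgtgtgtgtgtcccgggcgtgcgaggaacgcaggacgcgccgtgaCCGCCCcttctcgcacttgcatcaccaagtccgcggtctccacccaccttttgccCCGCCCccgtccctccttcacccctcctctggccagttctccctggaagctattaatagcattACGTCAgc

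Of the 9 genes, 8 had an entry in the RefSeq promoter table, and Fosl1 was not among them. The 250 bases of Fos, Jun and Atf3 lay wholly inside a merged region of their gene, and 236 of the 250 bases of Junb did. Fos held TGACGT at 66 to 61 bases before its start, and Atf3 held the same letters on the other strand at 8 to 3 bases before its start. Jun held TGACATCA, a match to TGANNTCA, at 45 to 38 bases before its start, and Jund held TGAAATCA at 61 to 54 bases. Thus TGACGT was present in 2 of the 8 genes and in 6.47% of 32851 promoters of the table, and TGANNTCA in 2 of 8 and in 11.9%. GGGCGG was present in 6 of 8 and in 32.7%. TGANTCA and the CArG box were found in 0 of the 8 windows and in 6.75% and 1.47% of all promoters. Bases farther than 250 from the start were not searched, so these counts do not show that a promoter lacks a motif. For Fosb 177 bases were searched, since the other 73 lay inside the annotated gene span. The median G and C content of all promoter windows was 52.4%, against 47.6% for Jund and 58.4% to 76.0% for the other members.

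The lists held 7009 to 26206 peaks in SOX2-, 9377 to 25272 in SOX2+, 17615 and 19229 in SOX2+/MKI67-, and 18738 and 24694 in SOX2+/MKI67+. Replicate 1 of SOX2- and replicate 2 of SOX2+ were the shortest lists of their groups. Sequencing depth was not given in the files, so the length of a list stands for the depth of its peak calling. The sort marker Sox2 had 0, 1, 1 and 1 peaks in the SOX2- libraries and 2 to 6 in each of the 8 libraries of SOX2+ cells. Of 10 microglia and macrophage markers, 7 had no peak in any list (Csf1r, Cx3cr1, Aif1, Itgam, Tyrobp, Trem2 and C1qa), and the summed peaks of the list were 0 to 1.38 per 10000 peaks in SOX2- and 1.53 to 2.38 in SOX2+. Peaks of the oligodendrocyte lineage markers summed to 4.28 to 6.92 per 10000 in SOX2- and 9.68 to 14.9 in SOX2+. Those of the astrocyte markers summed to 0 to 3.23 in SOX2- and 2.13 to 6.11 in SOX2+, ranges that overlapped. Endothelial and mural markers summed to 0 to 4.15 and 1.07 to 4.58. Of 8 stem and progenitor markers, 2 rose in SOX2+ against SOX2- (Fabp7 and Sox21, by the limma test described with the AP-1 genes). Of 8 oligodendrocyte lineage markers 2 rose (Nkx2-2 and Olig2), and of 10 granule neuron progenitor markers 1 fell (Nhlh1). Among all genes 0.878% passed in either direction. Fabp7 had 0 peaks in each SOX2- library and 1 in each SOX2+ library, so its error comes from the model. Differences were positive in 7 of the 8 stem and progenitor markers, while Sox9 had 1, 7, 0 and 6 peaks in SOX2- and 0, 0, 1 and 2 in SOX2+. The part of other cell types in the AP-1 results was not tested.

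In replicates 1 to 4, AP-1 genes together had 7, 20, 10 and 17 peaks (SOX2-) and 14, 10, 17 and 26 peaks (SOX2+). They had 16 and 15 peaks in SOX2+/MKI67-, and 18 and 21 in SOX2+/MKI67+. Relative to list length this was 8.34 ± 1.10 peaks per 10000 in SOX2- (SD, n = 4) and 9.49 ± 1.16 in SOX2+ (SD, n = 4), with ranges of 7.63 to 9.99 and 8.34 to 10.7 that overlapped. The MKI67 groups had 8.42 ± 0.14 (SOX2+/MKI67-, SD, n = 2) and 9.06 ± 0.78 (SOX2+/MKI67+, SD, n = 2), with the lower MKI67+ library at 8.50 and the higher MKI67- library at 8.52.

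**Figure D1:**
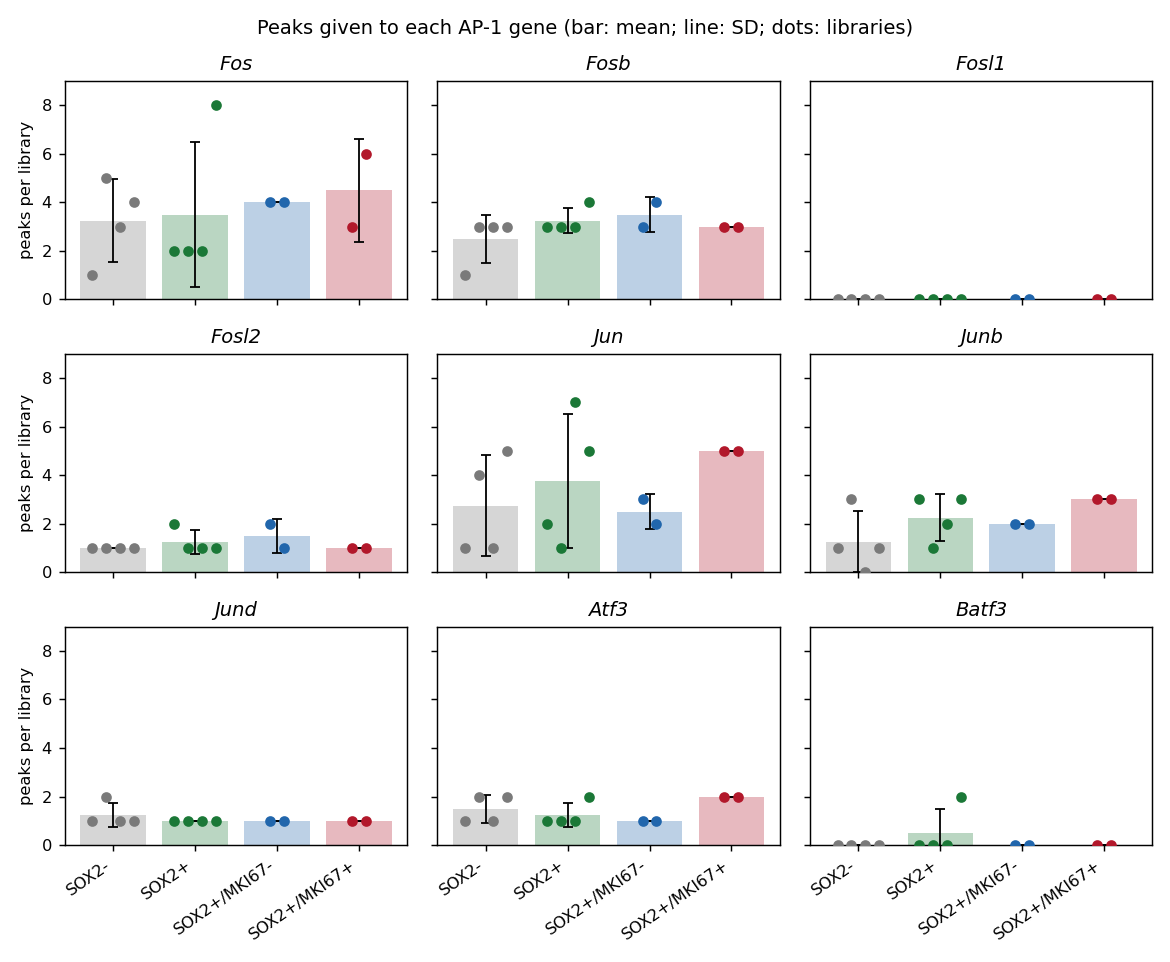
Peaks given to each of the 9 AP-1 genes (vertical axis, peaks per library) in the 4 sorted groups (horizontal axis); dots are libraries, bars are group means and black lines are SDs. Fos and Jun ranged from 1 peak to 8 and 7 peaks, Fosl1 had none in any library, and Batf3 had peaks in SOX2+ replicate 4 alone.

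Among the FOS genes, which encode partners for JUN proteins, Fos carried 44 of the 191 peaks. Its counts were 1, 5, 3 and 4 in SOX2-, 2, 2, 2 and 8 in SOX2+, 4 and 4 in SOX2+/MKI67-, and 3 and 6 in SOX2+/MKI67+. The groups overlapped, and SOX2+ replicate 4 stood above the other 11 libraries. Counts follow the amount of sequence nearest to a gene and were not compared between genes.

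Fos peaks fell into 10 regions, and the most constant was not the promoter. A region 12.2 kb downstream of the start site (chr12:85485787-85486414), beyond the end of the gene, was listed in 12 of 12 libraries. The start site region (chr12:85473396-85474183) was listed in 11 of 12, with SOX2- replicate 1, the shortest list, as the exception. Another region, 18.4 kb upstream (chr12:85455018-85455974) in the span of the lncRNA gene Gm38543, was listed in 1 of 4 SOX2-, 1 of 4 SOX2+, 2 of 2 SOX2+/MKI67- and 2 of 2 SOX2+/MKI67+ libraries. Where listed it ranked high, between the 76.1th and the 96.8th percentile of scores in its own list. It was missing from the longest list, SOX2- replicate 2, and the part of list length was not tested.

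A pair of Fos regions farther upstream was listed in SOX2- libraries alone. Those at 37.6 kb (chr12:85436069-85436467, in the span of the lncRNA gene Gm40477) and at 36.5 kb (chr12:85437194-85437494) were each listed in 2 of 4 SOX2- libraries and in 0 of the 8 libraries of SOX2+ cells. Replicate 2 of SOX2- had both, replicate 4 the first and replicate 3 the second, at the 25.0th to the 64.8th percentile of their lists. They were the 2 of 33 AP-1 regions found in at least 2 SOX2- libraries and in none of the 8 others. Of all 44242 regions 5.93% had this pattern, so it was about as common among AP-1 regions as elsewhere. It was not among the region classes set in advance.

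Fosb, another immediate early partner of JUN proteins, had 1, 3, 3 and 3 peaks in SOX2-, 3, 3, 3 and 4 in SOX2+, 3 and 4 in SOX2+/MKI67-, and 3 and 3 in SOX2+/MKI67+. Apart from SOX2- replicate 1, every library had 3 or 4. A region 9.97 kb upstream (chr7:19319689-19320338) was in all 12 lists. The region at the promoter (chr7:19310078-19310563) and another 1.49 kb into the gene (chr7:19308216-19308903) were each in 11, both missing from SOX2- replicate 1.

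Fosl2, which encodes FRA2, had 1 region, 0.908 kb before its start site (chr5:32135060-32136069), present in all 12 lists and the longest of the AP-1 regions. It was reported as 2 peaks in SOX2+ replicate 1 and SOX2+/MKI67- replicate 1, and as 1 peak in the other 10. Fosl1, which encodes FRA1, had no peak in any list. The nearest region lay 1.52 kb from its span, was present in all 12 lists, and was nearer to Ccdc85b. Within 100 kb of Fosl1 there were 16 regions, all nearer to 11 other genes, so the rule gave Fosl1 none.

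Among the JUN genes, whose products pair with FOS, ATF and each other, Jun had 1, 4, 1 and 5 peaks in SOX2- and 2, 1, 7 and 5 in SOX2+. It had 3 and 2 in SOX2+/MKI67-, and 5 and 5 in SOX2+/MKI67+. The SOX2 groups overlapped, while both cycling libraries stood above both non-cycling ones. Its start site region (chr4:95052033-95052827) was in all 12 lists at a median percentile of 87.3, and it ranged from 47.8 in SOX2- replicate 1 to 93.9 in SOX2+/MKI67- replicate 2.

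The other 8 Jun regions were listed in 1 to 7 libraries. A region 85.8 kb upstream (chr4:95137762-95138255), in the span of the lncRNA gene Junos, was in 0 of 4 SOX2-, 2 of 4 SOX2+, 2 of 2 SOX2+/MKI67- and 2 of 2 SOX2+/MKI67+ libraries. The SOX2+ libraries that listed it were replicates 3 and 4, the longest lists of that group. SOX2- replicates 2 and 4, which were longer than SOX2+ replicate 3, did not list it. The part of list length in this pattern was not tested. A region 28.6 kb downstream (chr4:95023437-95023889) was in the same 2 SOX2+ libraries, in 0 of 4 SOX2-, in 0 of 2 SOX2+/MKI67- and in 2 of 2 SOX2+/MKI67+. Another 1.15 kb upstream (chr4:95053180-95053572) was in 2 of 4, 3 of 4, 0 of 2 and 2 of 2, in the same order of groups as for the region 85.8 kb upstream.

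Junb, whose product is a weaker activator than JUN, had 1, 3, 0 and 1 peaks in SOX2- and 3, 1, 2 and 3 in SOX2+. It had 2 and 2 in SOX2+/MKI67-, and 3 and 3 in SOX2+/MKI67+. SOX2- replicate 3 had none, and SOX2- replicate 2 equalled the highest count of the other groups. Its start site region (chr8:84978603-84978984), over the bases printed above, was listed in 1 of 4 SOX2-, 3 of 4 SOX2+, 2 of 2 SOX2+/MKI67- and 2 of 2 SOX2+/MKI67+ libraries. The SOX2- library that listed it, replicate 2, had the longest list, and replicate 4, with 21682 peaks, did not list it. The part of list length was not tested here either. A region 2.17 kb from the start site, past the end of this short gene (chr8:84976348-84976815), was in 11 of 12 lists. The remaining region, 1.26 kb upstream (chr8:84979772-84980246), was in 1 of 4, 2 of 4, 0 of 2 and 2 of 2 libraries.

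Jund, the JUN gene known for steady expression, had 1 peak in 11 libraries and 2 in SOX2- replicate 2. Its constant region (chr8:70698451-70699350) lay 1.16 kb inside the gene and was in all 12 lists. None of the 250 bases before the annotated start of Jund lay in a region.

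Atf3, a stress-induced partner of JUN proteins, had 1, 2, 1 and 2 peaks in SOX2-, 1, 1, 1 and 2 in SOX2+, 1 and 1 in SOX2+/MKI67-, and 2 and 2 in SOX2+/MKI67+. The SOX2 groups overlapped, while the cycling libraries each had 1 peak more than the non-cycling ones. The constant Atf3 region lay 41.2 kb upstream (chr1:191224114-191224925) in the span of the lncRNA gene D730003I15Rik and was in 12 of 12 lists. The region at the annotated start site (chr1:191182953-191183623) was in 2 of 4 SOX2-, 1 of 4 SOX2+, 0 of 2 SOX2+/MKI67- and 1 of 2 SOX2+/MKI67+ libraries. A library with 2 Atf3 peaks therefore did not always have the start site listed: in SOX2+/MKI67+ replicate 1 the upstream region was reported as 2 peaks. Batf3, known for its part in dendritic cell development, had 2 peaks in SOX2+ replicate 4, of which 1 overlapped its start site (chr1:191098278-191098642), and 0 in the other 11 libraries.

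**Figure D2:**
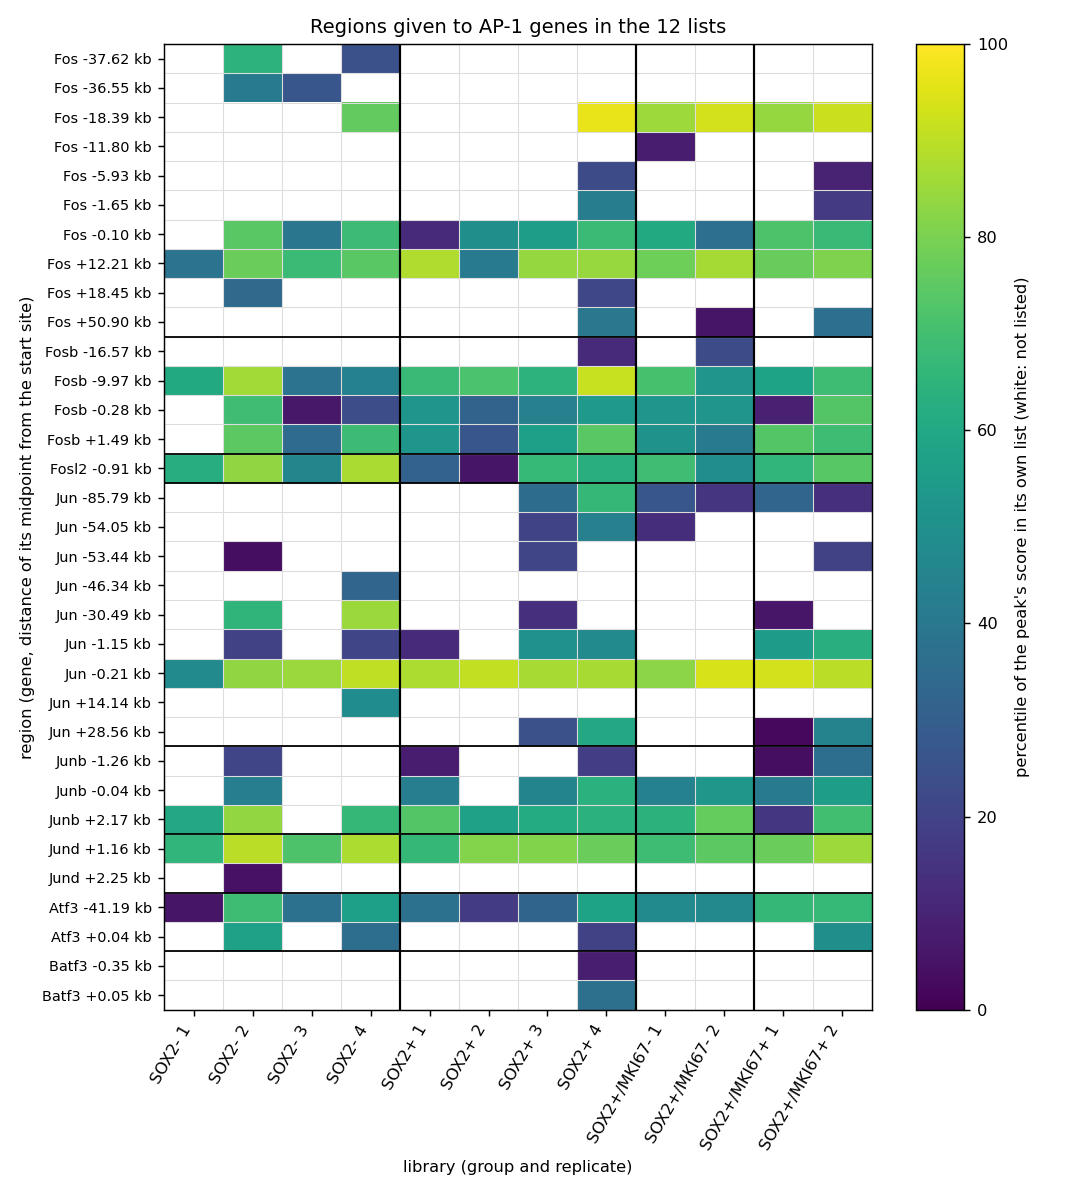
The 33 regions of the AP-1 genes (vertical axis, gene and distance of the midpoint from the start site in kb) in the 12 libraries (horizontal axis); colour is the percentile of the peak's score within its own list and white means not listed. The regions in all 12 lists form 6 unbroken bands, and the Fos regions at 37.6 and 36.5 kb upstream are filled in SOX2- libraries alone.

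Of the 33 regions, 6 (18.2%) were in all 12 lists, against 12.2% of all 44242 regions, and 6 (18.2%) were in 1 list, against 30.4%. The 6 constant regions belonged to 6 genes, Fos, Fosb, Fosl2, Jun, Jund and Atf3, and the Jun region was the only one of them that covered a start site. The AP-1 regions had a median length of 468 bp, against 411 bp for all regions.

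For SOX2+ against SOX2-, none of the 7 testable AP-1 genes passed the test for a difference in peaks per gene. Fosl1 had no peak and Batf3 had peaks in 1 library, so both were under the minimum of 2 libraries. Differences are on the log2(peaks + 1) scale from limma, fitted on 14244 genes and all 12 libraries with the log10 of list length as a term, and p-values were adjusted over all genes by Benjamini-Hochberg. Junb differed by 0.56 ± 0.34 (SE), Fosb by 0.27 ± 0.17, Jun by 0.16 ± 0.31 and Fosl2 by 0.14 ± 0.17. Fosl2 had 1 region, present in all 12 lists. Its counts varied, here and in the other comparisons, only where a list reported that region as 2 peaks. Fos differed by -0.13 ± 0.29, Jund by -0.17 ± 0.11 and Atf3 by -0.20 ± 0.12. Adjusted p-values from limma lay between 0.61 and 0.984, and 0 of 7 had an unadjusted p under 0.05, against 1887 of the 14244 genes. The median of the 7 was 0.14, with 0 for all genes, and 0.878% of all genes passed. The 95% confidence interval for Junb ran from -0.23 to 1.36 and that for Fos from -0.81 to 0.55, so the test could not separate these genes from no difference or from a change of about that size. The peak counts of the SOX2 groups overlapped in each of the 9 genes, while they did not overlap in 1.19% of genes tested.

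For SOX2+/MKI67+ against SOX2+/MKI67-, again 0 of 7 passed, with 0.225% of all genes passing. Atf3 differed by 0.51 ± 0.17 (SE; limma unadjusted p = 0.0193, adjusted p = 0.779), with 2 and 2 peaks against 1 and 1. With the 4 libraries of the MKI67 sort fitted alone, its difference was 0.58 and it passed (limma adjusted p = 0.0158), in a fit where 314 of 12517 genes passed. Its counts had no spread within either group, so the error in that fit comes from the model alone, and in SOX2+/MKI67+ replicate 1 the 2 peaks lay in 1 region. Jun differed by 0.57 ± 0.44 and Junb by 0.30 ± 0.48, with limma adjusted p-values of 1. Fosb, Fosl2, Fos and Jund differed by -0.25 ± 0.23, -0.30 ± 0.24, -0.11 ± 0.41 and -0.03 ± 0.16. Atf3, Jun and Junb were the 3 genes whose counts in the groups did not overlap, against 9.57% of all genes tested. The median of the 7 was -0.03, and that of all genes -0.02.

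Against the SOX2- libraries, which also serve the first comparison and came from another sort than the MKI67 groups, 0 of 7 genes passed for SOX2+/MKI67- (0.99% of all genes passed) and 0 of 7 for SOX2+/MKI67+ (0.534%). Here group and sort cannot be told apart. For Atf3 the difference was -0.39 ± 0.15 in SOX2+/MKI67- (limma unadjusted p = 0.0331, adjusted p = 0.282) and 0.12 ± 0.16 in SOX2+/MKI67+ (limma adjusted p = 0.981). For Junb it was 0.43 ± 0.42 and 0.72 ± 0.44, for Jun -0.23 ± 0.38 and 0.34 ± 0.40, and for Fos 0.10 ± 0.36 and -0.01 ± 0.37. Fosb, Fosl2 and Jund lay between -0.19 and 0.30 in SOX2+/MKI67- and between -0.22 and 0.05 in SOX2+/MKI67+.

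**Figure D3:**
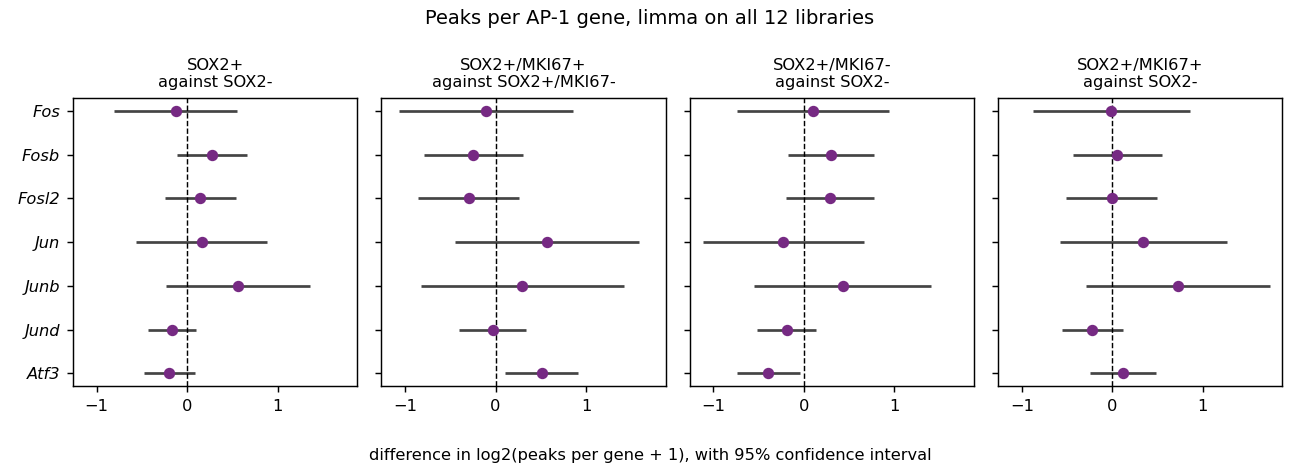
Difference in log2(peaks per gene + 1) for the 7 testable AP-1 genes (horizontal axis; dots are limma estimates and lines 95% confidence intervals) in the 4 comparisons. The interval for Atf3 leaves out 0 in the 2 panels that involve SOX2+/MKI67- libraries, where its unadjusted p was 0.0193 and 0.0331 and its adjusted p 0.779 and 0.282, and every other interval includes 0.

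By region rather than by gene, 0 of the 32 AP-1 regions seen in the SOX2 sort were specific to SOX2+ (3 or 4 libraries of SOX2+ and none of SOX2-), against 4.45% of 40722 regions. In the other direction it was 0 of 32, against 1.67%. In the MKI67 sort, 3 of 25 AP-1 regions were in both cycling and in no non-cycling library, against 6.06% of 29418 regions: Jun at 28.6 kb downstream, Jun at 1.15 kb upstream and Junb at 1.26 kb upstream. With each list reduced to its 7009 highest-scored peaks this count was 0. The reverse pattern was seen in 0 of 25, against 1.46%. The cycling lists held 18738 and 24694 peaks and the non-cycling ones 19229 and 17615, so the lengths overlapped. In the cycling list of 18738 peaks these regions, in the order named, ranked at percentiles 2.02, 55.4 and 3.57 of its scores. In the cycling list of 24694 peaks they ranked at 44.6, 62.8 and 36.0. The part of list length in this count was not tested.

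The rank of a region can be followed where it was listed everywhere, as a percentile among the 5397 regions found in all 12 lists. Scores belong to a single list, so this is a description without a test. The Fosl2 region ranked at 52.9, 33.5, 11.2 and 56.1 in SOX2- replicates 1 to 4 and at 1.91, 1.78, 17.4 and 6.10 in SOX2+, that is, near the bottom in SOX2+ and higher in 3 of 4 SOX2- lists. It ranked at 25.5 and 7.75 in SOX2+/MKI67- and at 18.5 and 15.7 in SOX2+/MKI67+. The Fos region 12.2 kb downstream ranked at 27.7, 19.7, 34.7 and 26.4 in SOX2-, and at 65.4, 21.4, 49.9 and 42.5 in SOX2+. In the MKI67 sort it ranked at 40.8 and 62.5 in the non-cycling lists, above both cycling ones at 35.1 and 29.4. The Jun start site had means of 50.6 ± 17.7, 63.6 ± 14.9 (SD, n = 4 each), 66.6 and 68.1 in SOX2-, SOX2+, SOX2+/MKI67- and SOX2+/MKI67+, the highest of the 6 regions in each of the SOX2+ groups. The constant Atf3 region stayed between 1.32 and 19.5 in all lists, toward the lower end of the scale.

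**Figure D4:**
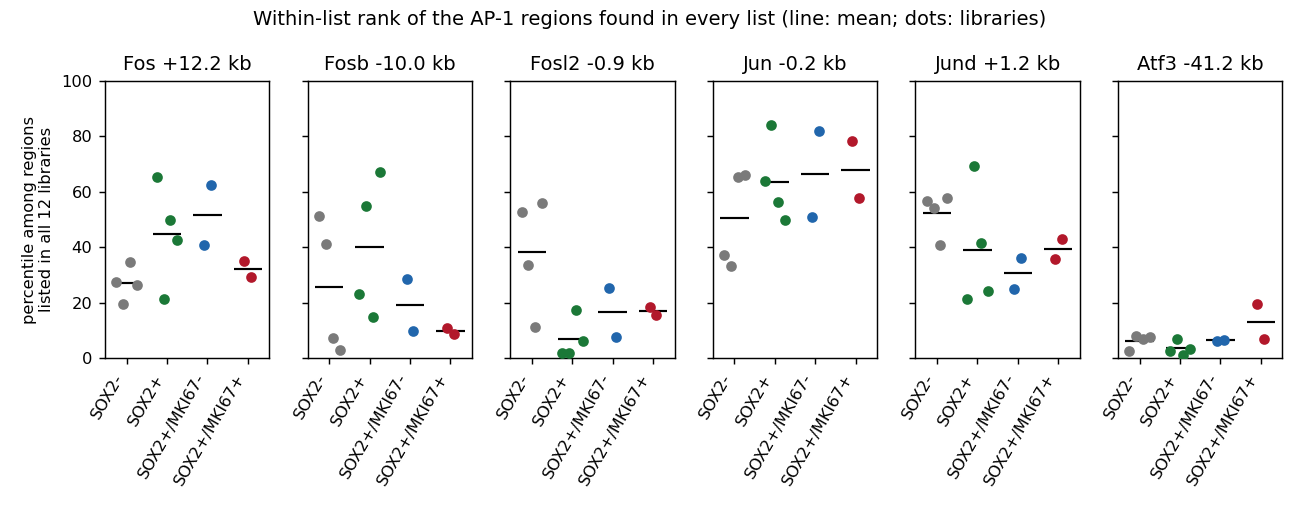
Percentile of the 6 constant AP-1 regions (vertical axis) among the 5397 regions listed in all 12 libraries, by sorted group (horizontal axis); dots are libraries and lines group means. The Fosl2 region lies at 11.2 to 56.1 in SOX2- and at 1.78 to 17.4 in SOX2+, ranges that overlap through SOX2- replicate 3.

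None of the genes that act with AP-1 passed the test in any of the 4 comparisons. This held for 22 tested of 24 AP-1 partners and other basic leucine zipper genes, 20 of 21 upstream kinases and phosphatases, 10 of 10 factors that act on AP-1 promoters, and 16 of 20 AP-1 target genes. For SOX2+ against SOX2- the list medians were 0.00, 0.07, 0.26 and -0.02, with 0 over all genes, and 0, 0, 3 and 3 of the tested genes had an unadjusted p under 0.05 in limma, against 13.2% of all genes, while 0.878% of all genes passed. The factors that act on AP-1 promoters had positive differences in 9 of 10, against 43.3% of all genes. That share counts as not positive the genes with a single peak count in all 12 libraries, whose difference is 0. The summed peaks of these factors were 11.1 to 17.1 per 10000 in SOX2- and 18.2 to 20.3 in SOX2+. The MKI67 sort had 15.3 to 16.1 in SOX2+/MKI67-, within the SOX2- range, and 17.1 to 17.4 in SOX2+/MKI67+, and against SOX2- the differences were positive in 6 of 10 and 9 of 10. Mrtfb, a coactivator of serum response factor, had 1, 2, 2 and 2 peaks in SOX2- and 5, 2, 5 and 6 in SOX2+ (0.88 ± 0.17 SE, limma adjusted p = 0.0695). It passed when the 1703 genes with a single peak count in all 12 libraries, which have no spread, were left out, an alternative chosen after seeing the data. Stat3, which acts through a site in the Fos promoter, had 1, 2, 1 and 2 against 3, 2, 2 and 4 (0.52 ± 0.14 SE, limma adjusted p = 0.178).

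For SOX2+/MKI67- against SOX2-, the AP-1 target genes had a median difference of -0.32. There 4 of 16 were positive, against 44.7% of all genes. Their median was -0.14 for SOX2+/MKI67+ against SOX2- and 0.14 between the MKI67 groups. The medians of all genes were 0, 0 and -0.02 in that order. Within this list, Cd44, an adhesion receptor, had 1, 2, 1 and 1 peaks in SOX2- and 0, 0, 0 and 1 in SOX2+ (-0.95 ± 0.21 SE, limma adjusted p = 0.103). It had 0 and 0 in SOX2+/MKI67- and 1 and 1 in SOX2+/MKI67+ (0.93 ± 0.30 between the MKI67 groups, limma adjusted p = 0.764). Plau, which encodes urokinase, had 0, 1, 1 and 1 in SOX2- and none in SOX2+ (limma adjusted p = 0.307). Of the partners, Maff, a small MAF protein, had 0, 1, 0 and 1 in SOX2- and 1 in each SOX2+ library (limma adjusted p = 0.398), and Nfe2l1 had 1, 2, 2 and 1 against 1 in each (limma adjusted p = 0.436). Of the kinases, Mapk10, which encodes the neuronal JNK that phosphorylates JUN, had 1, 2, 0 and 2 in SOX2- and 3, 2, 2 and 2 in SOX2+ (limma adjusted p = 0.525), and the phosphatase gene Dusp4 had 0, 2, 0 and 1 against 1, 1, 1 and 2 (limma adjusted p = 0.61). Between the MKI67 groups, Elk4, a ternary complex factor at serum response elements, had 2 and 2 peaks in non-cycling and 1 and 1 in cycling libraries (-0.55 ± 0.16 SE, limma adjusted p = 0.71).

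Immediate early genes outside AP-1 differed among themselves. Of 12 tested, 2 rose and 1 fell in SOX2+ against SOX2-, where 0.878% of all genes passed. Nr4a1, an orphan nuclear receptor, rose, with 1, 2, 1 and 2 peaks in SOX2- and 4, 3, 4 and 5 in SOX2+ (0.96 ± 0.10 SE, limma adjusted p = 0.00355). Arc, a synaptic gene, rose from 0 in each SOX2- library to 1 in each SOX2+ library, so it had no spread within groups and its error comes from the model. Ier5 fell, with 3, 7, 5 and 6 against 3, 2, 3 and 5 (-0.64 ± 0.11 SE, limma adjusted p = 0.0495), and did not pass when the genes without spread were left out. Nr4a1 had 4 and 5 peaks in SOX2+/MKI67- and 5 and 5 in SOX2+/MKI67+. For Ier5 the counts were 3 and 2 in SOX2+/MKI67- (-0.97 ± 0.13 SE against SOX2-, limma adjusted p = 0.0196). In SOX2+/MKI67+ they were 5 and 6, within the range of SOX2-.

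The genes whose counts over the 12 libraries were most like those of a member were found by Pearson correlation of log2(peaks + 1) among 12540 genes, as a description. For Fos they were Ttc28 (r = 0.95), Pabpc1 (0.92) and Tceal1 (0.92), for Fosb Asphd2, Ostm1 and Tmed8 (0.97 each), for Jun Frem2 (0.96), Cdon (0.95) and Lrrtm3 (0.95), and for Junb Dock1 (0.95). Fosl2, Jund and Atf3, whose counts took values of 1 and 2 alone, shared their pattern exactly with 11, 110 and 14 other genes, among them Batf for Atf3. All these genes share the 12 lists and their lengths: r with the log10 of list length was 0.82 for Fos, 0.83 for Jun, 0.70 for Fosb, 0.66 for Atf3 and 0.62 for Junb, and 0.33 for Jund and 0.06 for Fosl2.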

How the data were processed

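The 12 deposited files were peak lists of single libraries. Bowtie2 (alignment to mm10) and MACS2 (peaks) are named in the submitters' processing notes; their versions and settings, duplicate handling and any shift for the transposase are not given in the sources used here. Each list gave a score, a fold ratio over local background, a −log10 p-value and a −log10 q-value per peak, all made by the authors. Scores served to rank peaks within their own list, and no folds are reported. No read counts entered the work and depth is therefore unknown; an unlisted peak can be just below the threshold of that library.

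Peaks were given to the nearest of 21627 protein-coding genes (RefSeq, GRCm38.p6) by midpoint, within 100 kb, ties going to the nearer gene end and then by symbol. The test was limma 3.58.1 in R 4.3.3 (lmFit and trended eBayes) applied to each gene's log2(peaks + 1), two-sided, over genes with peaks in 2 or more libraries. The log10 of list length was a term, and the threshold was an adjusted p under 0.05. The procedure was tested on simulated data. The genes changed there had more peaks per library on average than Fosl2, Jund and Atf3, so the simulation does not cover counts that low. Peaks overlapping by 1 bp were merged into regions. The members and the gene lists were chosen with earlier results of these data known. Named from the lists were genes that passed, or else the 2 with the smallest p. For SOX2+ against SOX2-, the report gives the AP-1 partner and pathway genes so named and the passing markers. For the other comparisons it gives only the genes whose values it quotes, and the other genes named there are not reported here. The smallest-p genes of marker lists where none passed are not reported here. Alternatives changed the pseudocount, filters, covariate, peak threshold, window, assignment, libraries and replicate block. For likeness to Junb only the most similar gene is given; the others are not reported here.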

Additional observations from a re-analysis of the deposited data

Results flagged for a closer look

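In the groups of 4 libraries, 32 sets of values were examined for a library that stood far from the others of its group (by the gap to the nearest library as a share of the whole range, Dixon's test), and 8 were found; chance gives about 1 in 20, and counts this small tie often, so that a single different library is enough. SOX2+ replicate 4, with 25272 peaks the longest list of its group, was highest for Fos with 8 peaks against 2 in each of the others, for Fosb with 4, for Atf3 with 2 and for Batf3 with 2. SOX2+ replicate 1 was highest for Fosl2 with 2 peaks, which fell in the region that other lists reported as 1 peak. In SOX2-, replicate 1, the shortest list, was lowest for Fosb with 1 peak, and it was highest for all AP-1 peaks relative to list length, at 9.99 per 10000. Replicate 2, the longest list, was highest for Jund with 2 peaks.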

How the results depend on the processing

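With 4, 4, 2 and 2 libraries, values of 0 to 8 peaks per gene and no read counts, these data limit every comparison of AP-1 genes. Each of the 28 differences in peaks per gene was recomputed under the alternatives, giving 668 values. Of these, 616 kept their side of the threshold without turning direction, 51 turned direction and 1 newly passed, and 7 of the 28 never turned. Values that fell to 0 count as not turned. Among the 7, Jun for SOX2+/MKI67+ against SOX2+/MKI67- ranged from 0 to 0.995. Junb for SOX2+ against SOX2- ranged from 0 to 0.859, and Jund for SOX2+/MKI67- against SOX2- from -0.359 to 0. None of the differences that turned passed the test in any setting, and the cause was not tested.

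The number of AP-1 genes passing stayed at 0 in every comparison and setting except 1: fitted on the libraries of the MKI67 sort alone, 1 gene (Atf3, 0.585, with no spread of counts within either group) passed for SOX2+/MKI67+ against SOX2+/MKI67-. Over all genes the count passing moved more, and each later set of 4 counts keeps the order of the first. Without genes of 1 peak count in all libraries, chosen after seeing the data, it was 229 for SOX2+ against SOX2- (125 in the report), 0 for SOX2+/MKI67+ against SOX2+/MKI67- (32), 46 for SOX2+/MKI67+ against SOX2- (76) and 157 for SOX2+/MKI67- against SOX2- (141). With the libraries of the 2 groups alone it was 106, 314, 338 and 523, and with equal peak numbers 227, 56, 148 and 252. With every gene within 100 kb of a peak it was 196, 0, 10 and 135, at gene ends 40, 24, 43 and 48, and with the peaks above the median score of each list 71, 29, 68 and 65. With no depth covariate it was 89 for SOX2+/MKI67- against SOX2-, and with a minimum of 4 libraries 12 for SOX2+/MKI67+ against SOX2+/MKI67-. Where the count was 0, limma gave 698 genes (without genes of 1 peak count) and 801 genes (every gene within 100 kb) with an unadjusted p under 0.05. Leaving out 1 library gave 82 to 197, 32 to 81, 84 to 136 and 98 to 220. Same-numbered SOX2+ and SOX2- libraries had residual correlations of -0.01, 0.41, 0.08 and -0.18, and differently numbered ones ranged from -0.54 to 0.48. In the MKI67 sort the values were 0.06 and -0.06. There the residuals of the 2 libraries of a group mirror each other, so these are a single value with either sign. Residuals also sum to 0 within each group, so these correlations cannot settle whether same-numbered libraries are pairs. With a replicate block 0 AP-1 genes passed in each comparison, and 61, 46, 201 and 220 of all genes did.

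Regions in both cycling and no non-cycling library numbered 0 with equal peak numbers and 8 when every region within 100 kb was counted, whichever gene was nearest; the reverse class held 1 with equal peak numbers. Leaving out 1 library of the SOX2 sort gave 0 to 3 regions of SOX2+ and 0 to 2 of SOX2-. The rule becomes 2 of 3 libraries where the library left out is of the group that lists the region: there were 3 without SOX2+ replicate 1 or 2, and for SOX2- 2 without its replicate 1 and 1 without its replicate 3 or 4. Without SOX2- replicate 2, under the rule of 3 of 4, 1 region of SOX2+ was found.

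Directions turned as follows, on the log2(peaks + 1) scale. With equal peak numbers, SOX2+ against SOX2- was -0.75 for Fosl2 and -0.146 for Jun; SOX2+/MKI67+ against SOX2+/MKI67- was 0.208 for Fos, 0.5 for Fosb, 0.5 for Fosl2 and -1.0 for Junb; SOX2+/MKI67- against SOX2- was -0.396 for Fosb and -0.5 for Fosl2; and SOX2+/MKI67+ against SOX2- was 0.396 for Fos, -0.146 for Jun and -0.5 for Junb. With the peaks above the median score of each list, the same comparisons gave -0.303 for Fosl2, then 0.425 for Fosl2 and -0.558 for Junb, then -0.349 for Fosl2, then 0.13 for Fos, 0.075 for Fosl2, -0.092 for Junb and -0.017 for Atf3. With every gene within 100 kb of a peak they gave -0.057 for Fosl2 and 0.08 for Jund, then 0.191 for Fos, 0.127 for Fosl2 and 0.139 for Jund, then -0.165 for Fos, then 0.027 for Fos, 0.312 for Fosl2 and 0.1 for Jund. With no depth covariate they gave 0.004, 0.082 and 0.427 for Fos in the first, second and last and 0.066 for Jun in the third. At gene ends they gave 0.199 and 0.081 for Fos in the first and last, -0.08 for Junb in the second and -0.329 for Atf3 in the last. A window of 50 kb gave -0.036 for Jun in the first, the replicate block 0.264 for Fos in the last and -0.055 for Junb in the third, and the libraries of the 2 groups alone -0.001 for Fosb in the last. Leaving out 1 library gave -0.365 to 0.064, -0.343 to 0.141 and -0.238 to 0.246 for Fos in the first, second and last, -0.026 to 0.154 for Fosb in the last, -0.002 to 0.217 and -0.028 to 0.026 for Fosl2 in the first and last, and -0.078 to 0.339 for Jun in the first.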
